A study of Homo sapiens with 6 samples.

Results

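The Hippo pathway was read through 10 genes in HEK-293T cells given nitidine chloride: the kinases LATS1 and LATS2, the adaptors AMOTL1 and AMOTL2, the co-activators YAP1 and WWTR1, the transcription factor TEAD1 and the target genes CCN1, CCN2 and ANKRD1. They were taken by symbol from a gene table of 50868 entries, each symbol had a single row, and all 10 were among the 15953 genes with enough counts to be tested. HEK-293T is a transformed human embryonic kidney line, used here with a wild-type genotype. The treated group was grown for 12 h with 10 µM nitidine chloride, a benzophenanthridine alkaloid from plants, and the control group for 12 h with DMSO, its solvent. Each group had 3 mRNA sequencing libraries, and no label says that they came from separate cultures, so p-values measure only the spread between these libraries.

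In the Hippo pathway, the STE20-like kinases MST1 and MST2 activate LATS1 and LATS2, which phosphorylate YAP (from YAP1) and TAZ (from WWTR1) and keep them in the cytoplasm. Unphosphorylated YAP and TAZ enter the nucleus, bind TEAD factors and raise transcription of genes such as CCN1, CCN2 and ANKRD1. The angiomotins, AMOT, AMOTL1 and AMOTL2, bind YAP, hold it at cell junctions and promote its phosphorylation by LATS kinases. AMOTL2 and LATS2 are themselves known targets of YAP and TAZ. The pathway is controlled largely by protein phosphorylation, which RNA levels do not show.

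The nitidine chloride libraries held 13685873, 15620937 and 13273432 counts, and the DMSO libraries held 12688093, 14563014 and 16357992. Levels are given as CPM after TMM scaling, that is, counts relative to a library total corrected for differences in RNA composition. Marker genes of a kidney-derived line, such as PAX2, LHX1 and KRT18, were detected for 11 of 11 genes, with a summed level of 1451 to 1705 CPM after nitidine chloride and 1209 to 1492 CPM after DMSO. Of these 11 genes, 8 rose and 1 fell. Over all tested genes 24.7% rose and 27% fell, shares that stand beside each marker list below as well. Of the 9 kidney-line genes spanning under 50 kb from start to end, 7 rose and 1 fell. Among all tested genes of such a span, 34.0% rose and 10.0% fell. Much of the kidney-line sum was VIM, with a mean of 12362 counts over the 6 libraries, beside 733 for KRT18. Fibroblast markers summed to 61.8 to 68.7 CPM after nitidine chloride and 38.6 to 43.1 CPM after DMSO, with 2 of 5 tested genes higher, COL1A1 in the lead and FAP at 0. Endothelial markers summed to 67.9 to 85.7 and 60.6 to 68.7 CPM in the same order of groups, most of it EGFL7, with 1 of 2 tested genes, KDR, higher and CLDN5 at 0. Leukocyte markers summed to 5.12 to 6.26 CPM after nitidine chloride and 3.41 to 5.08 CPM after DMSO, with CD3E at 0 and no call among 2 tested genes. Epithelial markers summed to 5.38 to 6.83 CPM after nitidine chloride and 6.66 to 9.58 CPM after DMSO, with no call among 4 tested genes. This sum leaves out the keratins KRT8 and KRT18, which were counted in the kidney-line list. KRT8 and KRT18 share exon bases with each other on opposite strands. The part of such marker differences in the results below was not tested.

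Of the 10 genes, CCN1, CCN2 and AMOTL2 rose after nitidine chloride, while YAP1, WWTR1, TEAD1 and AMOTL1 fell. ANKRD1, LATS1 and LATS2 did not pass the test. Calls came from edgeR's quasi-likelihood test at an adjusted p of 0.05, with the Benjamini-Hochberg method applied over all genes. It called 51.7% of all tested genes, 24.7% higher and 27% lower, so 7 calls among 10 genes stand beside a background in which a call is common. A change of at least 2-fold was rarer, at 3.87% of all genes upward and 11.7% downward, and 6 of the 7 called genes reached it, all but AMOTL1. The libraries of both groups were fully separated for the same 7 genes, as they were for 60.7% of all tested genes. The median log2 fold change was -0.10 over the 10 genes and 0.01 over all tested genes.

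**Figure D1:**
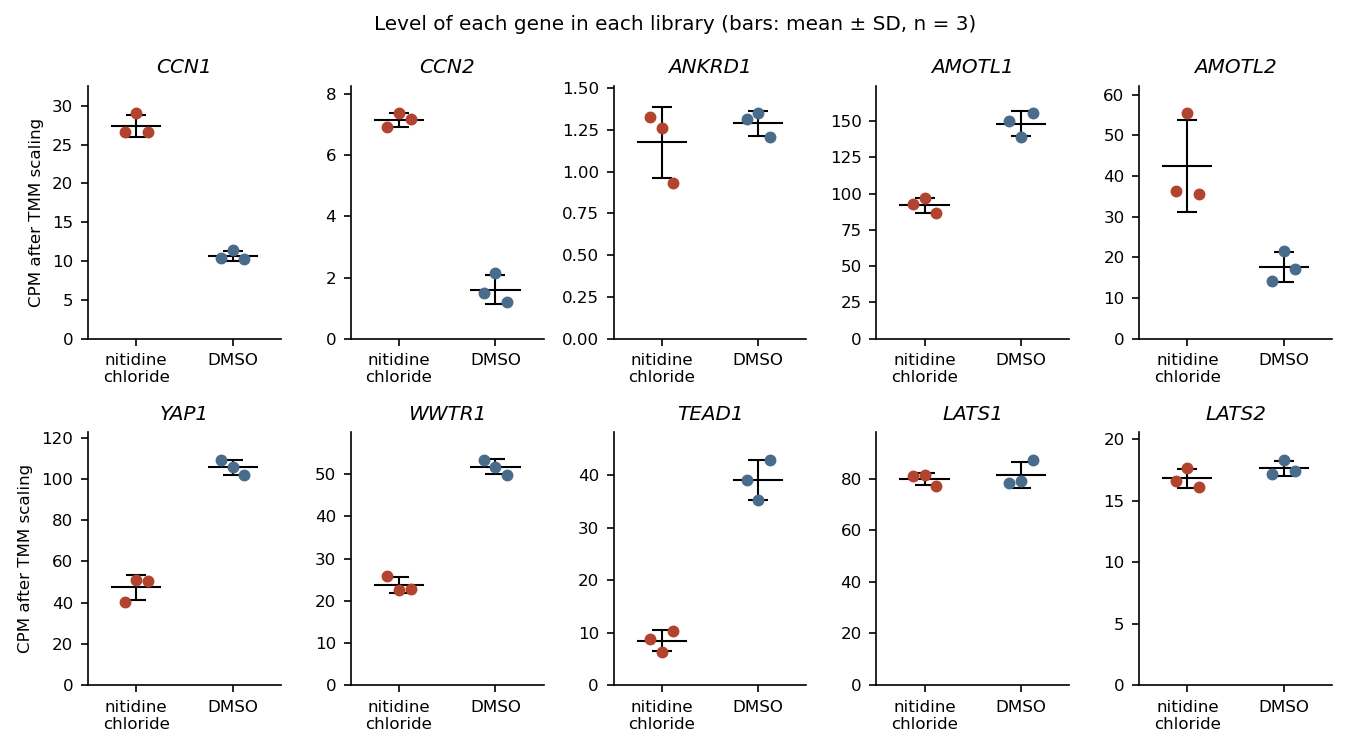
Level of each of the 10 Hippo pathway genes in every library, in CPM after TMM scaling on a linear axis from 0, with nitidine chloride at left and DMSO at right. Points are libraries, bars are mean ± SD (n = 3). The groups are apart for 7 genes and overlap for ANKRD1, LATS1 and LATS2.

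The LATS kinases, which phosphorylate YAP and TAZ, showed the smallest differences. LATS1 (ENSG00000131023, chr6:149658153-149718256, minus strand) measured 81.2, 81.3 and 77.0 CPM in the nitidine chloride libraries and 78.3, 79.0 and 87.5 CPM in the DMSO libraries. The groups overlapped. The log2 fold change was -0.03 ± 0.07 (SE; 95% interval -0.19 to 0.13; adjusted p = 0.725, edgeR).

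LATS2 (ENSG00000150457, chr13:20973032-21061547, minus strand) measured 16.6, 17.7 and 16.1 CPM after nitidine chloride and 17.2, 18.3 and 17.4 CPM after DMSO. Here too the groups overlapped, and the log2 fold change was -0.07 ± 0.09 (95% interval -0.28 to 0.14; adjusted p = 0.553 by edgeR). The log2 ratio of LATS2 to LATS1 in FPKM, the authors' value per gene length and depth, was -1.03 ± 0.04 after nitidine chloride and -0.99 ± 0.11 after DMSO (mean ± SD, n = 3 each; exact two-sided permutation p = 0.6, or 0.8 after adjustment over the 4 ratios examined). With 3 libraries a group the smallest p this permutation test can give is 0.1.

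The angiomotins moved in opposite directions. AMOTL2 (ENSG00000114019, chr3:134355874-134375479, minus strand) measured 36.2, 55.5 and 35.4 CPM after nitidine chloride and 14.1, 21.5 and 17.2 CPM after DMSO. Every nitidine chloride library was above every DMSO library, and the second library was the highest within each group. The rise was 2.41-fold, a log2 fold change of 1.27 ± 0.22 (adjusted p = 0.00193, edgeR).

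AMOTL1 (ENSG00000166025, chr11:94706431-94876753, plus strand) measured 92.6, 96.6 and 86.4 CPM after nitidine chloride, against 150.1, 139.0 and 155.5 CPM after DMSO. The groups were apart, and the level after nitidine chloride was 62.0% of that in DMSO. This log2 fold change of -0.69 ± 0.07 had an adjusted p of 0.000139 by edgeR, but tested against a 1.5-fold change in place of no change its adjusted p was 0.130.

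Within single libraries, the log2 ratio of AMOTL2 to AMOTL1 in FPKM was -1.16, -0.60 and -1.09 after nitidine chloride and -3.22, -2.49 and -2.98 after DMSO. The difference of 1.95 on the log2 scale separated the groups completely, with an exact permutation p of 0.1, the smallest possible, and 0.2 after adjustment. AMOT, the third angiomotin, was looked at after its values were seen. It measured 452.8 ± 10.4 CPM after nitidine chloride and 1324 ± 17.5 CPM after DMSO (mean ± SD, n = 3 each), a log2 fold change of -1.55 ± 0.05 (adjusted p = 7.36e-07, edgeR).

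To compare levels between genes, CPM was divided by the combined length of each gene's annotated exons. On this per-kilobase scale the 3 angiomotins summed to 69.5 ± 3.44 CPM per kb after nitidine chloride and 173.4 ± 2.55 after DMSO. AMOT made up 76.7% ± 2.18 of the sum after nitidine chloride and 89.8% ± 0.211 after DMSO. The share of AMOTL2 was 10.1% ± 2.17 after nitidine chloride and 1.69% ± 0.350 after DMSO, and that of AMOTL1 13.2% ± 0.477 and 8.51% ± 0.467 in the same order of groups. AMOTL2 thus rose within a family whose summed RNA was lower after nitidine chloride.

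Both co-activators fell. YAP1 (ENSG00000137693, chr11:102110461-102233423, plus strand) measured 40.3, 51.1 and 50.6 CPM after nitidine chloride and 109.4, 105.5 and 101.9 CPM after DMSO. The groups did not come near each other. The level after nitidine chloride was 44.8% of that in DMSO, a log2 fold change of -1.16 ± 0.10 (adjusted p = 5.43e-05, edgeR).

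WWTR1 (ENSG00000018408, chr3:149517235-149736714, minus strand), which encodes TAZ, measured 25.9, 22.6 and 22.9 CPM after nitidine chloride and 53.5, 51.8 and 49.9 CPM after DMSO. Its groups were also apart, at 46.0% of the DMSO level, with a log2 fold change of -1.12 ± 0.09 (adjusted p = 2.78e-05, edgeR). The log2 ratio of WWTR1 to YAP1 in FPKM was -0.93, -1.47 and -1.44 after nitidine chloride and -1.33, -1.32 and -1.32 after DMSO. The first nitidine chloride library lay above the DMSO values and the other 2 below them, so the groups overlapped, with a difference in means of 0.04 (exact permutation p = 1). Per kilobase of exons, YAP1 and WWTR1 together measured 10.3 ± 0.752 CPM per kb after nitidine chloride and 22.9 ± 0.804 after DMSO, and YAP1 held 72.5% ± 4.32 and 73.2% ± 0.0296 of this sum in the same order of groups.

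TEAD1, a DNA-binding partner of YAP and TAZ, fell furthest of the 10 genes. It lies at chr11:12674591-12944483 on the plus strand (ENSG00000187079) and measured 8.88, 6.25 and 10.4 CPM after nitidine chloride and 39.0, 35.3 and 43.0 CPM after DMSO. All nitidine chloride libraries lay far below all DMSO libraries, at 21.7% of the DMSO level. The log2 fold change was -2.21 ± 0.18 (adjusted p = 4.06e-05, edgeR).

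The other TEAD genes changed less or did not pass. TEAD2 fell, with 24.5 ± 1.43 CPM after nitidine chloride and 30.7 ± 0.151 CPM after DMSO, a log2 fold change of -0.33 ± 0.08 (adjusted p = 0.0111, edgeR). TEAD4 measured 36.7 ± 4.72 CPM after nitidine chloride and 42.9 ± 1.56 CPM after DMSO, a log2 fold change of -0.22 ± 0.11 with a 95% interval of -0.47 to 0.02 (adjusted p = 0.115, edgeR). TEAD3 measured 16.4 ± 1.59 CPM after nitidine chloride and 16.8 ± 0.817 CPM after DMSO, with an interval of -0.29 to 0.21 on the log2 scale (adjusted p = 0.776, edgeR).

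The summed level of the family moved less than TEAD1 itself. The 4 TEAD genes together measured 28.4, 32.4 and 30.9 CPM per kb of exons after nitidine chloride and 38.1, 38.8 and 38.6 after DMSO, groups that did not overlap. TEAD1 made up 2.73% ± 0.744 of the sum after nitidine chloride and 9.89% ± 0.989 after DMSO. TEAD4 was the most abundant member in both groups, at 52.7% ± 3.60 after nitidine chloride and 49.0% ± 1.61 after DMSO.

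**Figure D2:**
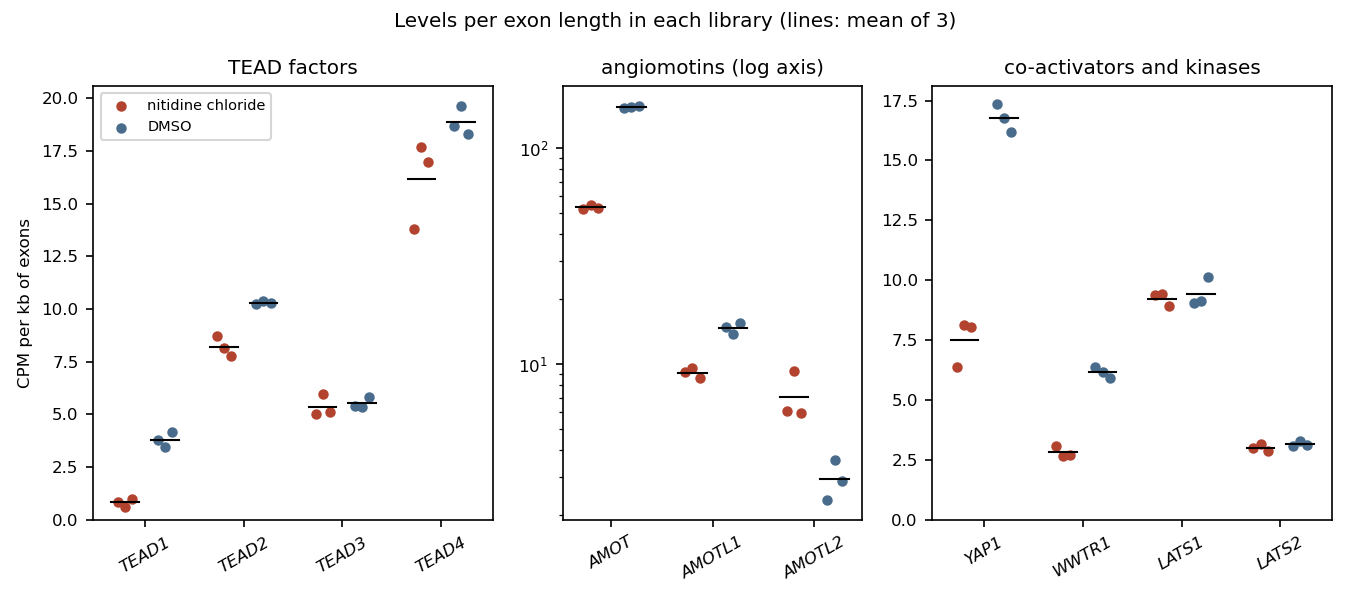
Levels of the TEAD factors, the angiomotins and the co-activators and kinases in every library, in CPM per kb of annotated exons. The angiomotin panel has a log axis, and nitidine chloride stands left of DMSO for each gene. Lines are means of 3 libraries. TEAD1 is lowest among the TEAD factors in both groups, and AMOTL2 is the angiomotin that is higher after nitidine chloride.

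Of the target genes, CCN1 and CCN2 rose, and ANKRD1 did not pass the test. CCN2, formerly CTGF, encodes a secreted matricellular protein and is a standard reporter gene of YAP and TEAD activity. CCN2 (ENSG00000118523, chr6:131948176-131951373, minus strand) had 99, 117 and 100 counts after nitidine chloride and 18, 30 and 19 after DMSO, or 6.92, 7.39 and 7.19 CPM against 1.48, 2.13 and 1.21 CPM. The groups were far apart, and the rise was 4.46-fold (95% interval 3.18 to 6.25), the largest upward change among the 10 genes, with a log2 fold change of 2.16 ± 0.21 (adjusted p = 9.79e-05, edgeR).

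CCN1, formerly CYR61, encodes a related matricellular protein. CCN1 (ENSG00000142871, chr1:85580761-85583962, plus strand) measured 26.6, 29.1 and 26.6 CPM after nitidine chloride and 10.4, 11.4 and 10.2 CPM after DMSO. All libraries of a group were close together and the groups apart. The rise was 2.57-fold, a log2 fold change of 1.36 ± 0.10 (adjusted p = 1.77e-05, edgeR).

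The log2 ratio of CCN2 to CCN1 in FPKM was -1.52, -1.55 and -1.46 after nitidine chloride and -2.38, -1.99 and -2.66 after DMSO. This difference of 0.83 separated the groups, again with the smallest possible exact permutation p of 0.1, or 0.2 after adjustment over 4 ratios. CCN3, the other CCN gene with enough counts, had a log2 fold change of 0.00 ± 0.35 (adjusted p = 0.998, edgeR).

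ANKRD1 (ENSG00000148677, chr10:90912096-90921276, minus strand), which encodes a cardiac ankyrin repeat protein and is often used beside CCN1 and CCN2 as a YAP reporter, was near the limit of detection. It had 19, 20 and 13 counts after nitidine chloride and 16, 19 and 19 after DMSO, or 1.33, 1.26 and 0.935 CPM against 1.31, 1.35 and 1.21 CPM. The groups overlapped. The log2 fold change of -0.13 ± 0.24 had a 95% interval of -0.69 to 0.43 (adjusted p = 0.728, edgeR), so rises above 0.43 on the log2 scale, such as those of CCN1 and CCN2, lie outside the interval.

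**Figure D3:**
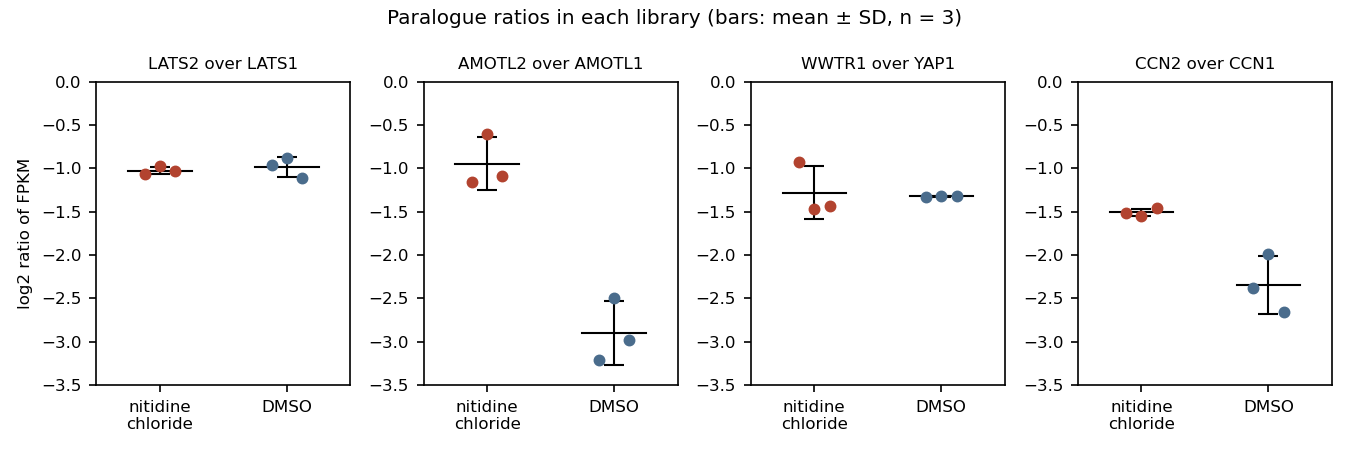
Log2 ratio of FPKM for 4 pairs of related genes within each library, with nitidine chloride at left and DMSO at right of each panel and bars for mean ± SD (n = 3). AMOTL2 over AMOTL1 and CCN2 over CCN1 are separated between groups, by 1.95 and 0.83. LATS2 over LATS1 and WWTR1 over YAP1 overlap.

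TEAD factors bind the sequence GGAATG, which reads CATTCC on the other strand. RefSeq promoter windows on GRCh38.p14, 250 bases before each annotated start, were present for 8 of the 10 genes, with CCN1 and TEAD1 not among them. The window of CCN2 is shown because this gene rose most and its window holds the motif 3 times, at 169, 104 and 95 bases before the start. Capitals mark GGAATG, and the window is chr6:131951373-131951622, minus strand.
CCN2: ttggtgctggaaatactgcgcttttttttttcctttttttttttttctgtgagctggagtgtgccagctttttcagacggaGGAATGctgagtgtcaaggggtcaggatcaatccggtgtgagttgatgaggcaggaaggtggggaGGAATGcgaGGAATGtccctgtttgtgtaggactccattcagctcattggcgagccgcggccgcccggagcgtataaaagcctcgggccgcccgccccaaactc

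The matches in the other windows are shown with up to 12 bases on each side, to set the motif in genes that did not pass, rose or fell beside that of CCN2. ANKRD1 holds it at 220 and 128 bases before its RefSeq start (chr10:90921290-90921319 and chr10:90921198-90921227, minus strand), the nearer match lying within an exon of GENCODE release 29. AMOTL2 holds it on the other strand, at 69 bases before the second of its 2 RefSeq starts (chr3:134374499-134374528, minus strand) and within a GENCODE exon. YAP1 holds it at 162 bases before its start (chr11:102110273-102110302, plus strand).
ANKRD1 far match: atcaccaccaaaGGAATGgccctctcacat
ANKRD1 near match: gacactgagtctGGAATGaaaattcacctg
AMOTL2: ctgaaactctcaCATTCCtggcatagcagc
YAP1: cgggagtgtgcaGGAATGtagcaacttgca

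Before their starts the windows of AMOTL1, WWTR1, LATS1 and LATS2 do not contain these letters. Of 35116 RefSeq promoter windows, 11.9% hold GGAATG on either strand before the start, 0.940% hold it at least 2 times and 0.0826%, or 29 windows, at least 3 times. CCN2, which rose, and ANKRD1, which did not pass the test, are the genes among these 8 with more than 1 match. The AP-1 motif TGANTCA was found before the start in ANKRD1 and in the second window of LATS1, against 6.57% of all windows, and the CArG box of SRF in none of these windows, against 1.16%. A match of letters is a description of the sequence and no measure of binding.

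Fold changes were related to gene length across the whole table. Among the 10 genes, direction ran with genomic span, the distance from start to end with introns, ANKRD1 aside. All 4 genes of at least 100 kb fell, 3 of the 4 genes under 20 kb rose, and the 2 genes between 50 and 100 kb, LATS1 and LATS2, did not pass. Spearman's rho between span and log2 fold change was -0.89 over the 10 genes and -0.47 over all 15953 tested genes, a description across genes of the same 6 libraries.

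Each gene was therefore set beside the genes nearest in span, those no shorter than 0.8 of it and no longer than its span divided by 0.8. For CCN2, at 3.20 kb, the 683 genes nearest in span had a median of 0.18 on the log2 scale, and 98.8% lay below CCN2. For CCN1, also at 3.20 kb, 96.9% of 686 genes were below it. For AMOTL2, at 19.6 kb, the median was 0.25 and 97.3% of 1720 genes were below it, so these 3 genes stood in the upper tail for their span. ANKRD1, at 9.18 kb, lay low, with 14.8% of 1218 genes below it and a median of 0.33.

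The fall of the long genes was closer to that of their neighbours in span. TEAD1, at 269.9 kb, had 503 such genes around a median of -1.86, and 32.4% lay below its -2.21. For YAP1, at 123.0 kb, the median of 1280 genes was -0.75 and 17.3% were below its -1.16. WWTR1, at 219.5 kb, and AMOTL1, at 170.3 kb, fell less than the median of comparable genes, which was -1.51 for WWTR1 and -1.11 for AMOTL1, with 69.4% and 73.0% of them below. The RefSeq promoter windows of WWTR1 and AMOTL1 lie inside these annotated spans, so both genes are shorter when measured from their RefSeq starts. How they compare with genes of those shorter spans was not tested. LATS1, at 60.1 kb, and LATS2, at 88.5 kb, had medians of -0.13 and -0.40 beside them, with 59.7% and 74.8% below. AMOT, at 66.3 kb, had a median of -0.19 beside it, and 0.843% of comparable genes were below its -1.55. TEAD2, at 21.9 kb, had a median of 0.24 beside it, and 8.44% of comparable genes were below its -0.33. For TEAD3, at 23.5 kb, and TEAD4, at 81.3 kb, 23.8% and 58.2% of comparable genes were below.

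**Figure D4:**
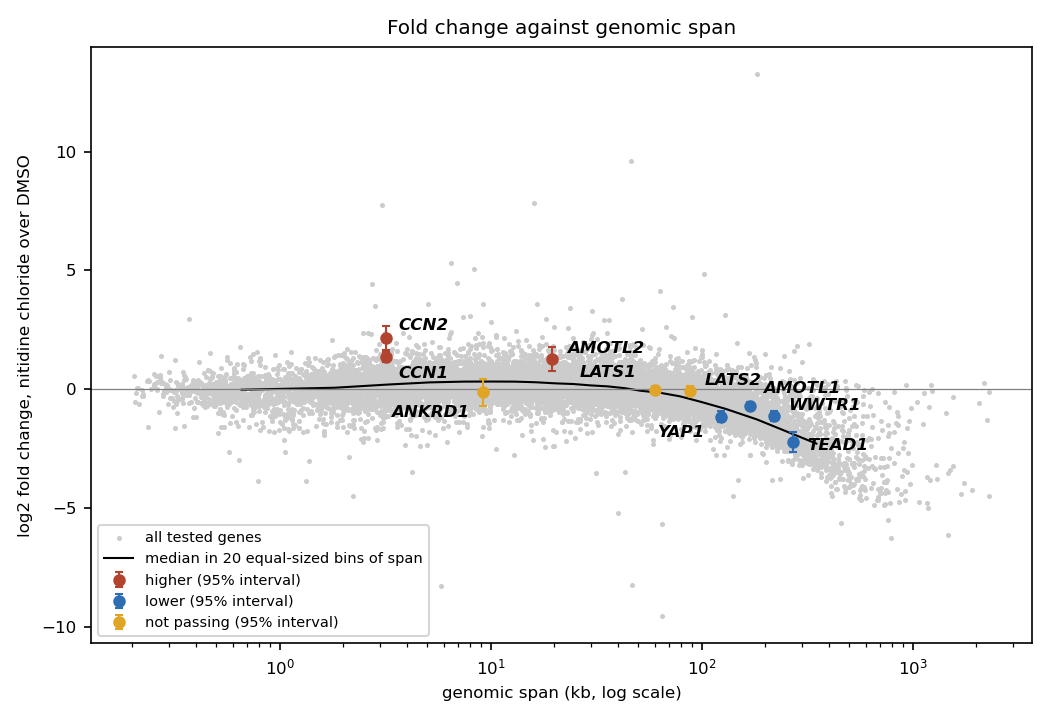
Log2 fold change of nitidine chloride over DMSO against genomic span in kb on a log axis. Grey points are all 15953 tested genes, the line is the median in bins of span, and coloured points with 95% intervals are the 10 Hippo pathway genes. CCN1, CCN2 and AMOTL2 lie above the line. TEAD1, YAP1, WWTR1 and AMOTL1 lie below 0 at spans where the line falls.

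The order of the genes by level per kilobase of exons changed. After nitidine chloride CCN1 was highest at 11.2 ± 0.582 CPM per kb, followed by LATS1 at 9.24 ± 0.284, AMOTL1 at 9.16 ± 0.510, YAP1 at 7.52 ± 0.973 and AMOTL2 at 7.08 ± 1.90. CCN2 at 3.06 ± 0.101, LATS2 at 3.01 ± 0.144, WWTR1 at 2.83 ± 0.222, TEAD1 at 0.826 ± 0.202 and ANKRD1 at 0.594 ± 0.107 came after them. The neighbours LATS1 and AMOTL1, YAP1 and AMOTL2, CCN2 and LATS2, and LATS2 and WWTR1 differed by less than the larger of their SDs.

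After DMSO YAP1 led at 16.8 ± 0.593 CPM per kb, followed by AMOTL1 at 14.8 ± 0.840, LATS1 at 9.44 ± 0.588, WWTR1 at 6.15 ± 0.211 and CCN1 at 4.34 ± 0.258. TEAD1 at 3.81 ± 0.374, LATS2 at 3.16 ± 0.112, AMOTL2 at 2.94 ± 0.623, CCN2 at 0.687 ± 0.204 and ANKRD1 at 0.652 ± 0.0382 completed the order. LATS2 and AMOTL2, and CCN2 and ANKRD1, differed there by less than the larger of their SDs. CCN1 thus held rank 1 after nitidine chloride and rank 5 after DMSO, and YAP1 rank 4 and rank 1 in the same order of groups.

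Of the upstream kinases, scaffolds and cadherins that activate LATS, 29 of 31 listed genes were tested, and 6 rose, 16 fell and 7 did not pass (median log2 fold change -0.69). STK3, which encodes MST2, fell to 3.52 ± 0.652 CPM after nitidine chloride, against 25.5 ± 0.522 CPM after DMSO (log2 fold change -2.85 ± 0.14, adjusted p = 3.32e-06, edgeR). TNIK, a MAP4K-related kinase, fell to 6.98 ± 0.309 CPM, against 70.5 ± 2.89 CPM after DMSO (log2 fold change -3.34 ± 0.09). WWC2, a KIBRA-family scaffold, had a log2 fold change of -2.01 ± 0.16. Genes of a like span had medians of -3.12 for STK3, -2.67 for TNIK and -1.51 for WWC2. Upward, RASSF6 had 0.90 ± 0.24, FJX1 0.50 ± 0.10 and RASSF1 0.49 ± 0.09. RASSF6, at 21 to 25 counts against 12 in each DMSO library, lost its call without DMSO replicate 3 (adjusted p = 0.0580) and with DESeq2 (adjusted p = 0.0998). All 6 genes that rose spanned under 50 kb, where 0 of 10 fell, and 13 of the 15 at 100 kb or more fell. Among all tested genes, 34.0% rose and 10.0% fell under 50 kb, while 2.12% rose and 80.4% fell at 100 kb or more.

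Of the genes that restrain the kinase arm, 25 of 26 were tested, and 5 rose, 11 fell and 9 did not pass, with a median of -0.13. At 100 kb or more 9 of 10 fell, against 80.4% of all tested genes. Under 50 kb 4 of 10 rose, against 34.0%. AJUBA, a LIM protein that binds LATS kinases and limits their activity, measured 76.0, 67.4 and 72.9 CPM after nitidine chloride and 26.6, 33.8 and 33.6 CPM after DMSO. Its groups were apart, with a log2 fold change of 1.20 ± 0.11 (adjusted p = 6.71e-05, edgeR), and it was above 97.0% of genes with a like span. SIKE1, of the STRIPAK phosphatase complex that counters MST kinases, had a log2 fold change of 0.52 ± 0.09. SLMAP and STRN3 of the same complex had -1.44 ± 0.12 and -1.39 ± 0.10, and SIK3, a salt-inducible kinase, had -1.83 ± 0.10. Genes of a like span had medians of -1.13 for SLMAP, -0.82 for STRN3 and -1.75 for SIK3. STRN3 shares exon bases with COCH on the opposite strand, whose reads could not be told apart if strand was not used in counting.

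Of the other TEAD and VGLL genes, 6 of 7 were tested, with 1 higher, 2 lower and 3 not passing, and a median of -0.13. Over all tested genes, 24.7% were higher and 27% lower. VGLL2, a TEAD co-factor, rose to 3.05 ± 0.432 CPM, against 1.41 ± 0.416 CPM after DMSO (log2 fold change 1.13 ± 0.25, adjusted p = 0.00639, edgeR). VGLL4, which competes with YAP for TEAD factors, fell, with a log2 fold change of -0.78 ± 0.08, and shares exon bases with ATG7 on the opposite strand. The list's count of higher genes was 2 without nitidine chloride replicate 3. In the CCN family 3 of 6 genes were tested, with CCN1 and CCN2 higher, CCN3 not passing and a median of 1.36.

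Of 22 known YAP and TAZ target genes, 5 of them among the 10 genes above, 19 were tested. Of these 7 rose, 5 fell and 7 did not pass, with a median of 0.12. That is 36.8% higher and 26.3% lower, beside 24.7% and 27% of all tested genes. Leaving out the 5, there were 4 higher, 5 lower and 5 not passing among 14, with a median of 0.03. GADD45A, a stress-induced growth arrest gene, measured 54.7 ± 6.36 CPM after nitidine chloride and 31.4 ± 2.56 CPM after DMSO, a log2 fold change of 0.80 ± 0.11 (adjusted p = 0.000551, edgeR). NUAK2, a kinase of the AMPK-related family, had 0.77 ± 0.21 (adjusted p = 0.0157, edgeR) and lost its call without nitidine chloride replicate 1, with an adjusted p of 0.050.

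Targets with long genes were among those that fell. ASAP1, an ARF GTPase-activating protein, fell to 11.5 ± 0.779 CPM, against 89.0 ± 2.34 CPM after DMSO (log2 fold change -2.95 ± 0.08, adjusted p = 5.01e-07, edgeR), and CRIM1, a transmembrane regulator of BMP ligands, had -1.97 ± 0.09. RBMS3, an RNA-binding protein, had 1, 4 and 0 counts after nitidine chloride and 16, 53 and 7 after DMSO, and lost its call without nitidine chloride replicate 1 (adjusted p = 0.0574, edgeR). Split by span, 7 of the 9 targets under 50 kb rose and none fell, while 5 of the 6 at 100 kb or more fell and none rose. The 7 include CCN1, CCN2 and AMOTL2. Among all tested genes, 34.0% rose under 50 kb and 80.4% fell at 100 kb or more, so the fall of the long targets is near the share of all long genes. IGFBP3, at 15, 19 and 12 counts after nitidine chloride and 2, 4 and 2 after DMSO, was under the count minimum and not tested. In bulk RNA such as this, fewer cells of a type and less RNA per cell cannot be told apart.

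**Figure D5:**
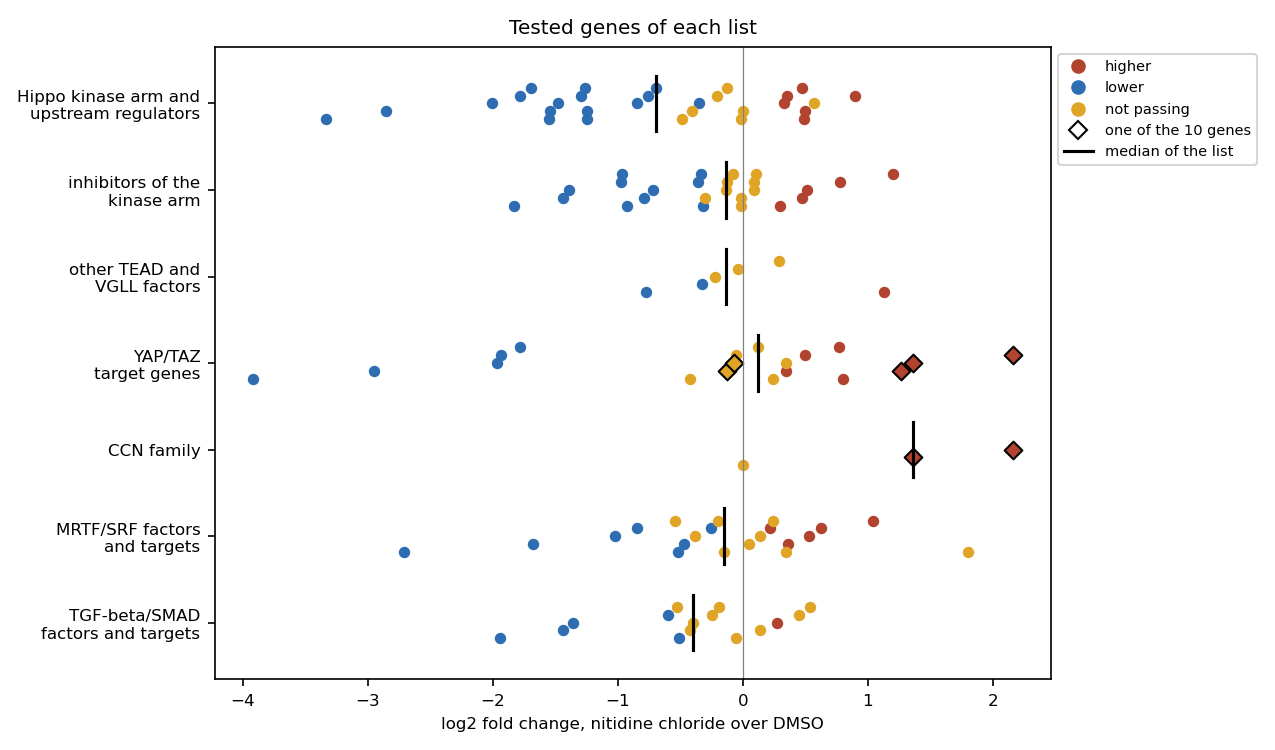
Log2 fold change of nitidine chloride over DMSO for every tested gene of 7 pathway lists, coloured by call, with the 10 Hippo pathway genes that are in a list drawn as diamonds and a bar at each list's median. The kinase arm has the lowest median at -0.69, and CCN2, CCN1 and AMOTL2 are the highest YAP and TAZ targets.

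Other annotated genes shared exonic bases with 6 of the 10 genes, and the highest count of any such overlapping gene in any library was 8. With scaling by library size alone the median log2 fold change of all genes was 0.12 in place of 0.01, with 5140 genes higher and 3730 lower in place of 3936 and 4314, and the 7 calls and their directions held.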

How the data were processed

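RNA of 6 HEK-293T libraries was sequenced as mRNA libraries, per the labels' protocols. The authors deposited whole-number read counts and FPKM per gene, per the file headers. Per the submitters' processing notes, HISAT2 2.0.4 and StringTie 1.3.0 were used. No role is stated for them, and the counter, its strand setting and the build are not given in the sources used. Positions equal those of GENCODE release 29 for 47523 of 50111 shared identifiers and for all 10 genes. The authors' FPKM divides by a length that is a median of 1.467 times the combined exons, so levels between genes use GENCODE exon length, and FPKM only ratios within a gene pair.

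A mean count of 10 or more was required for testing, which was done with edgeR 4.0.16 (R 4.3.3, quasi-likelihood, TMM, no covariate). DESeq2 1.42.0 and limma 3.58.1 served as alternatives, and Python 3.11.15 made summaries and permutation tests. The genes, lists and tests were chosen with earlier results of these data known. Besides the 10 genes, from each list up to 3 genes a direction, those with the largest changes among called and separated genes, and TEAD2, TEAD3 and TEAD4, are named. Some genes of this rule are not reported here. COL1A1, EGFL7, KDR, CCN3 and IGFBP3 fall outside this rule and were named after their values were seen. Table entries without counts numbered 22254, and no 2 libraries were identical. Promoter windows and sequences are from RefSeq.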

Additional observations from a re-analysis of the deposited data

How the results depend on the processing

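Across the 14 alternatives for each of the 10 genes, 134 of 139 values kept direction and side of the threshold, 1 lost its call and 4 changed sign. AMOTL1 lost its call against a 1.5-fold change (log2 fold change -0.69). The sign changes were in genes without a call: with scaling by library size alone LATS1 was at 0.0732 and LATS2 at 0.0352, as was TEAD3 at 0.0635. Leaving out each library in turn gave -0.217 to 0.00971 for ANKRD1 (highest without nitidine chloride replicate 3), -0.0621 to 0.0186 for LATS1 (highest without DMSO replicate 3) and -0.121 to 0.00799 for TEAD3 (highest without nitidine chloride replicate 1). The difference in the LATS2 to LATS1 ratio ran from -0.101 to 0.0112 (highest without DMSO replicate 2), and that in WWTR1 to YAP1 from -0.134 (without nitidine chloride replicate 1) to 0.139. The test against a 1.5-fold change called 750 genes higher and 2083 lower. In the pathway lists, leaving out the 10 genes and counting each gene once, it called 2 higher. CCN1, CCN2 and AMOTL2 kept their calls in it. An adjusted p under 0.01 left 2616 genes higher, and 13 higher in the lists counted in the same way, in place of 21. The cause was not tested, but both settings are stricter by construction.

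No label pairs the samples by replicate number. Same-numbered libraries deviated with correlations of 0.0014, -0.055 and 0.040, and differently numbered ones with -0.084 to 0.085. With 3 libraries a group, these values cannot show whether the numbers pair the samples. With a replicate block, 3 of the 10 genes were higher and 4 lower, as without it, and 3492 genes in all were higher and 4063 lower. The block changed no call of the 10 genes. ANKRD1 was not tested at a mean count of at least 50. With 3 libraries a group, permutation tests could not pass 0.05, and low counts limit ANKRD1, RASSF6, RBMS3, ACTA2 and VGLL2. CCN2 was low in the DMSO group as well, at 18, 30 and 19 counts. ACTA2 and VGLL2 lost their calls against a 1.5-fold change (adjusted p = 0.0845 and 0.0579, edgeR).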

Other observations

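Genes of MRTF and SRF, actin-regulated transcription factors that share targets with YAP, showed 5 higher, 7 lower and 9 not passing among 21 tested of 24 listed, with a median log2 fold change of -0.15. That is 23.8% higher and 33.3% lower, near the 24.7% and 27% of all tested genes. The list's count of higher genes was 3 with a replicate block, and also without DMSO replicate 1, DMSO replicate 2 or nitidine chloride replicate 2. The co-activators MRTFB and MRTFA fell, MRTFB to 8.42 ± 0.916 CPM after nitidine chloride, against 55.0 ± 22.3 CPM after DMSO (log2 fold change -2.71 ± 0.32, adjusted p = 0.000289, edgeR), and MRTFA by 1.68 ± 0.13 on the log2 scale. SRF rose to 151.4 ± 10.7 CPM, against 104.7 ± 1.25 CPM after DMSO (0.53 ± 0.07, adjusted p = 0.000406, edgeR). ZYX, which encodes zyxin, had 0.63 ± 0.10. ACTA2, smooth muscle actin, had 36, 53 and 43 counts after nitidine chloride and 13, 26 and 22 after DMSO. Its log2 fold change was 1.04 ± 0.24, and it shares exon bases with FAS on the opposite strand. VCL, vinculin, had -1.02 ± 0.06 and overlaps AP3M1 in the same way. Genes of a like span had medians of -1.35 for MRTFB, -1.55 for MRTFA and -0.78 for VCL. The medians were 0.33 for SRF, 0.32 for ZYX and -0.10 for ACTA2. Of the genes with a like span, 0.781% lay below MRTFB and 41.5% below MRTFA.

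Genes of TGF-beta and SMAD signalling, which acts on CCN2 as well, showed 1 higher, 5 lower and 9 not passing among 15 tested of 19 listed, with a median of -0.40. That is 6.67% higher and 33.3% lower, beside 24.7% and 27% of all tested genes. SMAD6, an inhibitory SMAD, fell to 46.9 ± 1.49 CPM after nitidine chloride, against 180.3 ± 3.54 CPM after DMSO (log2 fold change -1.94 ± 0.06, adjusted p = 6.01e-07, edgeR). ID3 and ID1, short BMP-responsive genes, had -1.44 ± 0.08 and -1.36 ± 0.10. TGFB1 had 0.28 ± 0.08 (adjusted p = 0.0217, edgeR). It lost this call without DMSO replicate 1 (0.0579) or DMSO replicate 3 (0.0837) and shares exon bases with HNRNPUL1.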
